A study of Mus musculus with 2 samples.

Results

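The 10 genes described here encode receptors, transcription factors, RNA regulators and an enzyme that mark spermatogonia, the mitotic germ cells at the base of the seminiferous tubule. They were chosen by name, with earlier results of these data known. A probe set was taken for a gene when the array annotation gave its symbol and no other. Each of the 10 genes had 1 such probe set, out of 35557 probe sets on the array and 19938 genes that could be named. RNA came from mouse embryonic stem (ES) cells, a pluripotent cell type kept in culture with leukemia inhibitory factor. In both groups the cells carried the CTCFL_V5_GFP transgene, in which CTCFL, the germ cell paralog of the insulator protein CTCF, carries V5 and green fluorescent protein (GFP) tags. By the methods of the study this construct was transfected into ES cells that make the reverse tetracycline transactivator from the Rosa26 locus, so that doxycycline turns it on, and clones were selected; the sources used here do not say whether the arrays hold RNA of 1 clone. The induced group, 1 array, had doxycycline for 3 days before GFP-positive cells were sorted, and the non-induced group, also 1 array, received no doxycycline and was not sorted. Doxycycline, sorting and CTCFL therefore cannot be told apart, no group has a replicate, and no test was made. The differences below describe these 2 arrays.

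Spermatogonial stem cells renew themselves under the control of GDNF, a growth factor from Sertoli cells that binds the coreceptor GFRA1 and signals through the receptor tyrosine kinase RET. ZBTB16 (also known as PLZF) and NANOS2 hold germ cells in this undifferentiated state. Differentiating spermatogonia make SOHLH1, SOHLH2 and the receptor KIT, while DMRT1 governs the choice between further mitosis and entry into meiosis. Several of these genes are not limited to spermatogonia: Kit is also made by ES cells, primordial germ cells, mast cells and melanocytes, and Ret and Uchl1 by neurons. CTCFL itself belongs to the male germ line, where it is made shortly before meiosis, at the end of the stages that these genes mark. The question asked here is what signal these genes had in ES cells with and without the transgene turned on.

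The values are log2 signals made by robust multi-array averaging (RMA), and each difference is the induced minus the non-induced log2 signal, so that 1 means a doubling. Genes were called higher or lower when they differed by log2 1 or more and the brighter value reached the median of all gene values, 6.36, which is called the floor. The transgene was read by the Ctcfl probe set at 9.44 in the induced and 5.99 in the non-induced array, which matched the labels. All 10 ES cell markers examined were above the floor, with differences above 0 for 4, below 0 for 6 and a median of -0.01. Pou5f1, the core pluripotency factor, was at 11.98 and 11.96. The widest differences among these markers were 0.49 for Tfcp2l1, -0.46 for Zfp42, -0.37 for Klf2 and 0.24 for Klf4. Over all genes the median difference was 0.01, and the middle 50% of genes lay between -0.24 and 0.26. Dim genes leaned upwards, with a median of 0.06 for the 9241 genes below the floor against -0.03 for the 10697 genes at or above it. Signals of different probe sets are not on a shared scale, so that levels were compared between the arrays and not between genes.

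The start regions of 3 members are shown because they are the member with the widest difference upwards (Gfra1), the one with the widest difference downwards (Nanos3) and the one that differed least (Sohlh2). They are RefSeq sequences of build GRCm38.p6, covering 250 bases before and 50 bases after the annotated start, read on the strand of the gene. Capitals mark CG dinucleotides, the sites of DNA methylation. Gfra1 lies at chr19:58455349-58455648 on the minus strand, Nanos3 at chr8:84176503-84176802 on the minus strand and Sohlh2 at chr3:55181794-55182093 on the plus strand.
Gfra1: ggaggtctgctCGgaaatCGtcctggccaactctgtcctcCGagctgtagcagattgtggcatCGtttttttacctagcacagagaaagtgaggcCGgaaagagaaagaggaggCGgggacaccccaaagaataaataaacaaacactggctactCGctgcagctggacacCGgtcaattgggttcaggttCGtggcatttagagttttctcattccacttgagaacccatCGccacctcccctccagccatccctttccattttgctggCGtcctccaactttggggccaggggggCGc
Nanos3: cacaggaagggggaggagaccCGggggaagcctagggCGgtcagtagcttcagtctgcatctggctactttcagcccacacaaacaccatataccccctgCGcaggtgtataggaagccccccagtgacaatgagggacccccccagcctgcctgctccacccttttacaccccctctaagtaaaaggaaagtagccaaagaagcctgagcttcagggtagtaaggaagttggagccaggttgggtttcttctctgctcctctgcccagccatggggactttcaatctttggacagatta
Sohlh2: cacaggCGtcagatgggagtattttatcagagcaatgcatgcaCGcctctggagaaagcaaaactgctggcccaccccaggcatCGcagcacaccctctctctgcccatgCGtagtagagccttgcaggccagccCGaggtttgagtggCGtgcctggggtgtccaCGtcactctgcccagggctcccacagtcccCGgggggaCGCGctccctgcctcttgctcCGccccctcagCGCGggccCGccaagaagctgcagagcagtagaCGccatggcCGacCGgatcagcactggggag

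These windows held 12 CG dinucleotides at Gfra1, 3 at Nanos3 and 17 at Sohlh2, against a median of 7 over the 32851 windows in the sequence table. Of all windows, 60.4% held fewer than that of Gfra1, 23.3% fewer than that of Nanos3 and 68.6% fewer than that of Sohlh2. Among the other members in the table Sohlh1 held 14, Uchl1 9 and the start sites of Kit 20 and 21, while that of Nanos2 held 0. Ret, Zbtb16 and Dmrt1 had no entry. Since CTCFL binds sites like those of CTCF, the windows were also searched on both strands for the 12-letter core of the CTCF consensus, which 0 of the 8 windows of the 7 members held, against 0.557% of all windows. After this and several shorter patterns had been looked at in the windows, they were searched for the last 7 letters of the core in each of its 4 forms. These were AGGGGGC as 1 form, AGGTGGC as another, then AGAGGGC and last AGATGGC. At least 1 of these was found in 7 of the 8 member windows, which belong to 6 of the 7 members, all but Nanos3. Among all windows 27.6% held one. The windows of Kit overlap, and the forms were searched for after these windows had been looked at, so the count gives no measure of enrichment. The form at Gfra1 was AGGTGGC, that at Sohlh2 AGGGGGC, and those at Sohlh1, Uchl1, Kit and Nanos2 AGAGGGC. A match describes letters in the window and is not a binding site, and a lack of one says only that these letters are not in it.

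Of the 10 genes, 5 had a difference above 0 and 5 below, with a median of 0.04 that turned to -0.05 after centring of each array on its median. The floor was reached by 6 of them. Of these, 5 reached it in both arrays, Kit, Sohlh2, Dmrt1, Nanos3 and Uchl1, and 1, Gfra1, in the induced array only. Of these 6, 1 gene was higher by log2 1 or more, Gfra1, and 0 were lower, beside 0.477% higher and 1.79% lower among all genes that reached the floor. The 3 receptors were all above 0 (median 0.36) and both RNA regulators below 0 (median -0.34), where 51.4% of all genes were above 0. Ret and Nanos2 among them were below the floor in both arrays, and sets this small show no pattern by role. The 3 members Sohlh2, Dmrt1 and Uchl1 differed by less than 0.05 (10.8% of all genes did). A difference of 0.5 or more either way was seen for 3 members, Gfra1, Zbtb16 and Nanos3, and for 19.9% of all genes.

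**Figure D1:**
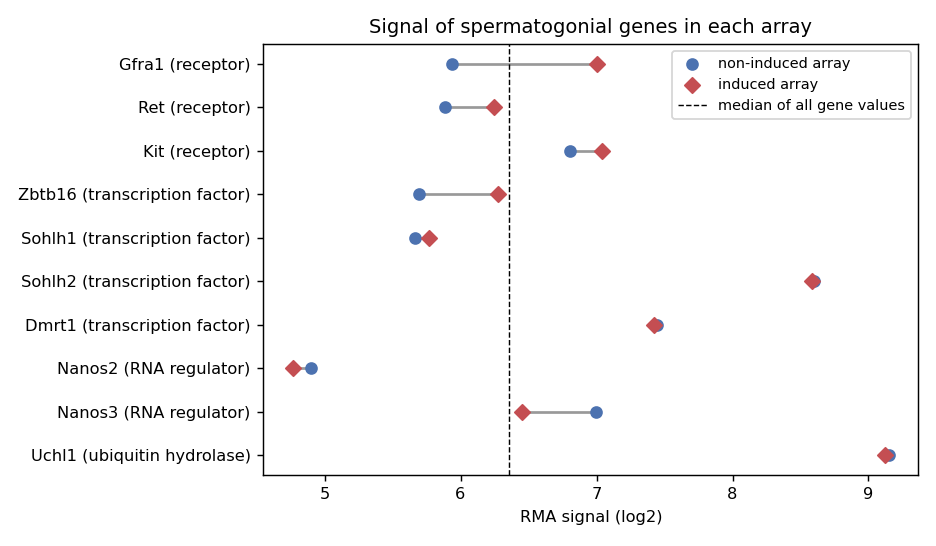
RMA signal (log2) of the 10 spermatogonial genes in the induced array (diamonds) and the non-induced array (circles), 1 point per array; a dashed line stands at the floor, 6.36. The widest gap is that of Gfra1 (7.00 against 5.94), which crosses the dashed line, and the points of Sohlh2, Dmrt1 and Uchl1 nearly coincide. Positions of different genes are not comparable with each other.

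Gfra1, which encodes the coreceptor that binds GDNF, was at 7.00 in the induced and 5.94 in the non-induced array (probe set 10468722, chromosome 19). It was thus above the floor in the induced array only, and its difference was 1.06, or 2.09-fold. Of the 19938 genes, 93 had a higher difference. Among the 500 genes closest to it in mean signal, the middle 95% differed by -0.77 to 0.87, and Gfra1 was the 1 member that lay outside such a range. Its place past log2 1 depended on scaling, at 0.97 after centring, 0.97 after removal of the trend on signal level by lowess and 0.78 when 32 was added as a constant to each linear value.

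Ret, the kinase through which GFRA1 signals, was at 6.24 against 5.89 (probe set 10547227, chromosome 6), a difference of 0.36, and did not reach the floor in either array. Kit, the receptor for stem cell factor that spermatogonia make when they begin to differentiate, was at 7.04 against 6.80 (probe set 10522530, chromosome 5), a difference of 0.24. Both values of Ret were thus dim, both values of Kit above the floor, and both genes slightly brighter in the induced array. Both differences fell inside the range of the 500 genes of like signal, which was -0.73 to 0.84 for Ret and -0.87 to 0.67 for Kit.

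Zbtb16, a zinc finger repressor needed for stem cell renewal, was at 6.27 in the induced and 5.69 in the non-induced array (probe set 10593225, chromosome 9). Its difference of 0.58 was the second highest of the members, but neither value reached the floor and genes of like signal ranged from -0.86 to 0.92. Sohlh1, a helix-loop-helix factor of differentiating spermatogonia, was at 5.77 and 5.67 (probe set 10480869, chromosome 2), a difference of 0.10, and was also below the floor in both arrays. Its partner Sohlh2 was well above the floor at 8.59 and 8.60 (probe set 10492123, chromosome 3), a difference of -0.01. Dmrt1, a DM domain factor of germ and Sertoli cells, was at 7.42 and 7.44 (probe set 10462217, chromosome 19), a difference of -0.02. So of the 4 transcription factor genes, the pair with signal above the floor, Sohlh2 and Dmrt1, had nearly equal values in the arrays, and of the pair below it Zbtb16 was the brighter in the induced array while Sohlh1 had no settled sign, at 0.00 after centring and -0.03 after lowess.

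Nanos3, which protects primordial germ cells from death and is also made in spermatogonia, was the member with the widest difference downwards. It was at 6.45 in the induced and 7.00 in the non-induced array (probe set 10580131, chromosome 8), a difference of -0.54, and both values were above the floor. Genes of like signal ranged from -0.72 to 0.78, and 8.65% of all genes had a lower difference. Nanos2, which represses differentiation by bringing target RNAs to a deadenylase, was at 4.77 and 4.90 (probe set 10550519, chromosome 7), a difference of -0.13 between dim values. Uchl1, a ubiquitin hydrolase used as a marker of spermatogonia and neurons, was at 9.13 and 9.15 (probe set 10522208, chromosome 5), a difference of -0.02. Differences this close to 0 had no settled sign, since Sohlh1, Sohlh2, Dmrt1 and Uchl1 each changed sign after quantile normalization and after lowess.

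**Figure D2:**
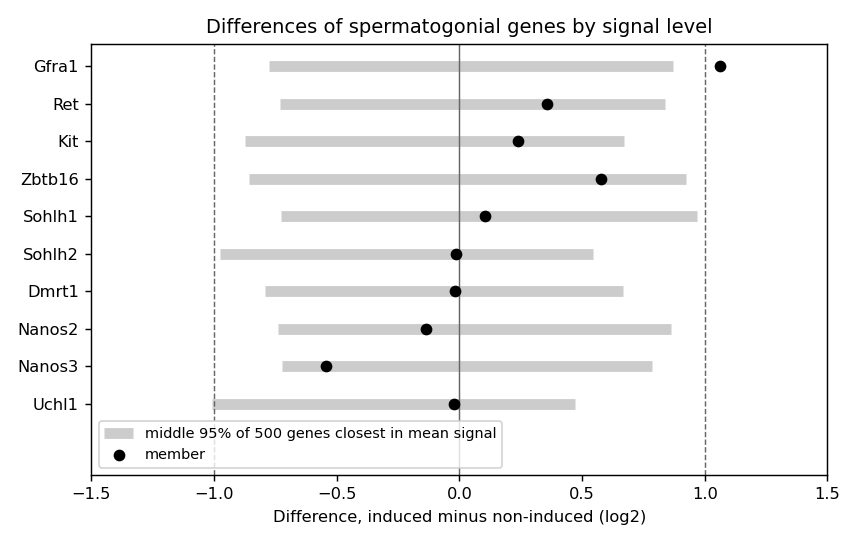
Difference of each member between the arrays (points, log2, induced minus non-induced) and the middle 95% of differences of the 500 genes closest to it in mean signal (grey bars); dashed lines mark log2 1 either way. Gfra1 at 1.06 lies beyond its bar, which ends at 0.87, and the other 9 members lie within theirs.

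The partners of each member were then examined from gene lists, chosen with earlier results of these data known. Several of these lists share genes. In the GDNF family, 7 of 10 ligand and receptor genes were above 0, where 51.4% of all genes were. The median of this list was 0.23 against 0.01 for all genes, and 0 of the 10 passed log2 1. Nrtn, which encodes the ligand neurturin, was at 8.04 against 7.04, a difference of 0.999 that fell just short of the size counted and was past it at 1.07 after quantile normalization and 1.06 after lowess, but 0.90 after centring. Gdnf itself was at 6.59 against 5.82 (0.77), above the floor in the induced array only, and Artn, the gene of the ligand artemin, at 6.41 against 5.85 (0.56). These ligand genes leaned the same way as Gfra1, whereas the other ligand gene, Pspn, was at -0.35. The paralogous coreceptors did not form a group with Gfra1, since Gfra4 was at 0.34, Gfra3 at -0.15 and Gfra2 at -0.05, and the distant family member Gfral, at 0.49, was below the floor in both arrays. Of 11 adaptors and kinases that act after RET 5 were above 0 and 6 below, with a median of 0.00, from 0.49 for the Src family kinase gene Fyn to -0.25 for its relative Yes1.

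Of the 9 measured genes that GDNF is known to regulate in spermatogonia, 3 were above 0 and 6 below. Their median was -0.12, and 0 were past log2 1. Over all genes 51.4% were above 0. Mycn, a proliferation factor, was at 8.17 against 9.01 (-0.83), and the immediate early gene Fos at 7.13 against 7.62 (-0.49), while Egr3 was at 0.31 and Id4, a marker of the stem cell fraction, at 0.18. The ligand and receptor list and the list of regulated genes had medians on opposite sides of 0. Neither held a gene past log2 1. Both medians were small, and GDNF signalling was not tested.

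Of the markers of undifferentiated spermatogonia 16 of 21 were above 0, and 0 past log2 1, with a median of 0.12 that was 0.02 after centring, where 51.4% of all genes were above 0. The tetraspanin gene Cd9, at 10.97 against 10.01 (0.95), Plvap, an endothelial gene that also marks spermatogonia (0.63), and the SOX factor gene Sox3 (0.51) had the widest differences upwards. Cd9 passed log2 1 after quantile normalization (1.07) and lowess (1.03), but not after centring (0.86) or with the constant of 32 (0.93). Bmi1, a Polycomb gene, was at 6.89 against 7.68 (-0.79). Of the markers of differentiating spermatogonia 3 of 10 were above 0 and 7 below, with a median of -0.09 that was -0.02 after quantile normalization and -0.04 after lowess. Among them Stra8, a retinoic acid-induced gene needed for meiosis, was at 5.93 against 5.01 (0.92), below the floor in both arrays, and Dmrtc2 at 0.41, while the homeobox gene Rhox13 was at -0.79 and the germ cell gene Tex15 at -0.63.

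For the remaining members the partner lists held no gene past log2 1 above the floor. Kitl, which encodes the ligand of KIT, was at 4.25 against 5.17 (-0.93), dim in both arrays and, with the constant added, at -0.42. Of the 11 measured genes of KIT signalling 6 were above 0, with a median of 0.08 that was -0.02 after centring, 0.01 with the mean of probe sets, 0.18 after lowess and 0.21 after quantile normalization. They included the adaptor gene Sh2b3, a brake on KIT, at 0.63, the gene of the feedback inhibitor Spred1 at -0.70 and the kinase subunit gene Pik3cd at 0.57. Known targets of SOHLH1 and SOHLH2 had a median of 0.03 over 8 genes, which was -0.07 after centring, and 1 of the 8 reached the floor. Zp1, a zona pellucida gene of the oocyte, was at 5.71 against 4.70 (1.02) and Zp3, of the same coat, at -0.50, both dim in both arrays, so that these dim genes of the egg coat stood at opposite ends of the list.

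Of the 16 measured partners of NANOS proteins, mostly subunits of the CCR4-NOT deadenylase, 6 were above 0 and 10 below. Over all genes 51.4% were above 0. Of these partners 14 reached the floor, and 5710 of the 10697 genes that reached it were below 0. The median of the list was -0.23, or -0.10 after quantile normalization and -0.13 after lowess. The catalytic subunit gene Cnot6 was at 7.73 against 8.31 (-0.58), the RNA-binding partner gene Pum2 at -0.52 and the germ cell gene Dnd1 at 0.51, while Tob1, an adaptor of the deadenylase, was at 8.58 against 7.88 (0.70). The other DMRT genes had a median of 0.30 over 7 genes, of which 4 were above 0, 3 below and 3 reached the floor. The 4 above 0 were Dmrt2 at 0.70 and Dmrtc2 at 0.41, both dim in both arrays, Dmrt3 at 0.35 and Dmrta2 at 0.30. Corepressors and other partners of ZBTB16 with its target Ddit4 had a median of -0.11 over 8 genes, with the related repressor gene Bcl6 at 0.48, Ddit4 at -0.41, the corepressor gene Sin3a at -0.30 and the deacetylase gene Hdac1 at -0.26. The 3 measured relatives of Uchl1 were all below 0, Uchl3 at -0.25, Uchl5 at -0.20 and Bap1 at -0.14.

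**Figure D3:**
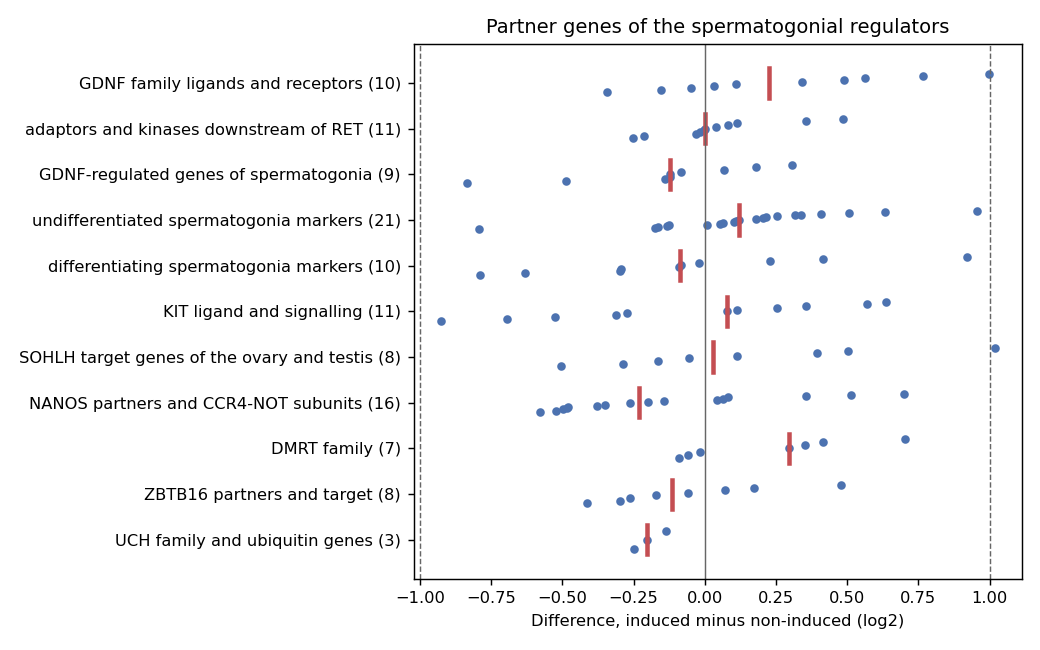
Difference of the partner genes of the members between the arrays (log2, induced minus non-induced; points, 1 per gene) by list. Brackets give how many genes were measured, and a red bar marks the list median; dashed lines mark log2 1 either way. The medians run from -0.23 for the NANOS partners to 0.30 for the DMRT family in the values as deposited, and their order changes with scaling; most points lie within the dashed lines.

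CTCF acts on gene activity through chromatin loops, and CTCFL binds sites like those of CTCF. Whether CTCFL acts through loops was not tested. The 2 nearest measured protein-coding genes on each side of every member were set beside it, in the gene order of GRCm38.p6. Of these 40 genes 23 were above 0 and 17 below, with a median of 0.07, where 51.4% of all genes were above 0. Of the 22 that reached the floor 1 was higher by log2 1 or more and 0 lower. Among all genes that reached the floor 0.477% were higher and 1.79% lower. The higher neighbour was Kank1, a gene of the cytoskeleton that lies next to Dmrt1. It was at 6.57 against 5.56, above the floor in the induced array only. Its difference of 1.01 was 0.91 after centring, 0.88 after lowess, 0.91 after quantile normalization and 0.68 with the constant. The genes on the other side of Dmrt1, Dmrt3 (0.35) and Dmrt2 (0.70), were above 0 as well, while Dmrt1 between them was at -0.02. Next to Gfra1, Atrnl1 was at 7.23 against 6.65 (0.59) on one side and Ccdc172 at 0.00, dim in both arrays, on the other. Around Kit, Pdgfra was at 0.13 and Kdr at -0.06, both dim. Next to Nanos3, 4930432K21Rik was at 5.85 against 6.59 (-0.73) and Zswim4 at -0.01.

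**Figure D4:**
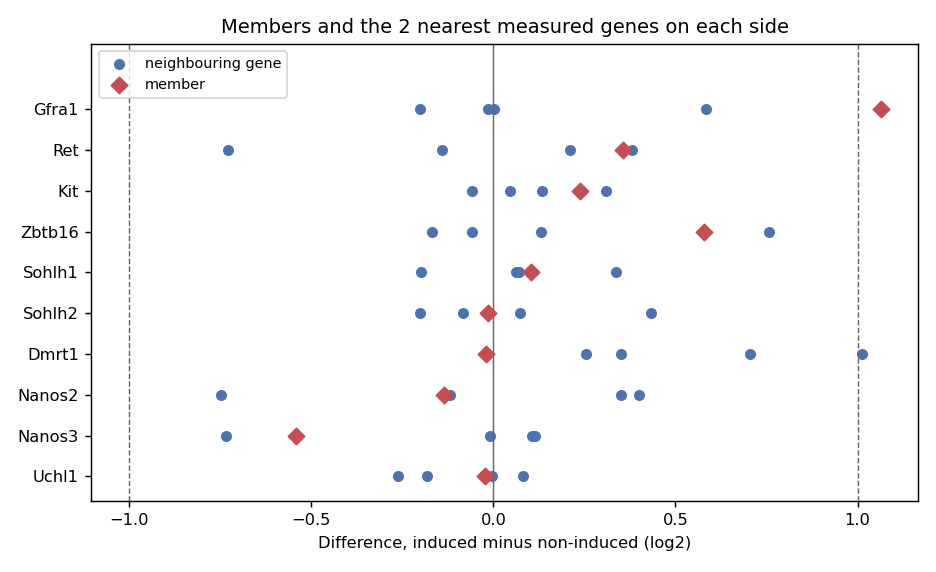
Difference between the arrays (log2, induced minus non-induced) of each member (diamonds) and of the 2 nearest measured genes on each side of it (circles); dashed lines mark log2 1 either way. Kank1 in the row of Dmrt1 (1.01) is the 1 circle beyond a dashed line, and the diamond of Gfra1 (1.06) lies to the right of all its neighbours.

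Markers of other cell types were read beside these values, because Gfra1, Ret, Kit, Zbtb16 and Uchl1 are also made outside the germ line and only the induced cells were sorted. Mesenchyme markers were brighter in the induced array in 9 of 10 cases (median 0.50), where 51.4% of all genes were above 0. All 10 reached the floor, Loxl1 and Thbs1 among those that did so in the induced array only. Their summed linear signal was 4169 against 3579, and such sums are weighted by the brightest genes of a list. Ccn1 (0.94), Loxl1 (0.85), Thbs1 (0.81) and Col5a1 (0.58) had the widest differences. Endoderm markers were above 0 in 7 of 10 cases (median 0.25), with 4 reaching the floor and a summed signal of 693 against 657. Of these, Sox17 was at 0.42, Afp at 0.35, Cubn at 0.30 and Foxa2 at -0.85. Neural markers were above 0 in 6 of 10 cases (median 0.02, or -0.08 after centring), with 5 reaching the floor and a summed signal of 1117 against 1218. Pax6 was dim at 1.12, Stmn2 was at -1.19, Elavl3 at -0.40 and Dcx at -0.32. Markers of blood, mast cells and melanocytes were above 0 in 6 of 9 cases (median 0.27), with 1 reaching the floor, Tal1 at 0.55. Their summed signal was 490 against 410, with Cd34 at 0.69, Gata2 at 0.55 and Cpa3 at -0.38. The part of such cells in the values of Gfra1, Ret, Kit and Zbtb16 was not tested, and fewer cells of a type cannot be told apart from less RNA per cell.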

How the data were processed

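Total RNA (300 ng) of CTCFL_V5_GFP ES cells was hybridized to Affymetrix Mouse Gene 1.0 ST arrays, 1 induced and 1 non-induced. The deposited values are log2 signals per probe set, which the authors made by RMA (background correction, quantile normalization and probe summary); no version, array annotation or build is given in the sources used here. That the scale is log2 was inferred from their range, 1.36 to 14.5. RMA compresses differences of dim genes. Arrays carry no read depth, and their number limits the precision.

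Of 35557 probe sets 21789 had 1 symbol, 1621 several and 12147 none; only the first entered, 21698 with current names from RefSeq (GRCm38.p6). Of 19938 genes 999 had several probe sets and were read by the brightest. With 1 array per group no test was made. The members and lists were chosen with earlier results of these data known. The text names all members, up to 4 genes of each of 19 lists with the widest difference, and neighbours where a result turns on them; Pou5f1, Gfra2, Gfra3, Gfra4 and Pspn were named outside this rule. Alternatives were centring, lowess (fraction 0.3), quantile normalization, the mean of probe sets, an offset of 32, a size of log2 0.58, and no floor or one at the 75th percentile. The steps were tested on simulated data. Python 3.11.15, numpy 2.4.6, pandas 2.3.3 and statsmodels 0.14.6 were used.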

Additional observations from a re-analysis of the deposited data

How the results depend on the processing

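The count of members higher by log2 1 or more was 1, Gfra1, after quantile normalization, with the mean of probe sets, without a floor and at the smaller size of log2 0.58, but 0 after centring, after lowess, with the constant of 32 and with the floor at the 75th percentile. Gfra1 itself was at 0.97 after centring, 0.97 after lowess and 0.78 with the constant; it stayed above 0 under each of these. The count of members lower was 0 under all 8 alternatives. Over all genes the count of higher genes went from 51 to 25 after centring and 10 with the constant, 568 at the smaller size, 141 without a floor and 8 with the higher floor. The count of lower genes went from 191 to 268 after centring, 108 with the constant and 904 at the smaller size. It was 297 without a floor and 134 with the higher floor. Of the other members, Nanos3 ranged from -0.64 to -0.42, Zbtb16 from 0.38 to 0.58, Ret from 0.22 to 0.36, Kit from 0.14 to 0.24 and Nanos2 from -0.23 to -0.06, so each kept its sign, and 4 changed sign as given above. The median of the members was -0.05 after centring and 0.03 to 0.11 otherwise. After lowess, the medians of the SOHLH targets and the neural markers were both -0.07 and thus below 0. List medians were small and moved with scaling. That of the GDNF family was 0.13 after centring, that of the genes GDNF regulates ran from -0.22 after centring to -0.06 after quantile normalization, that of the ZBTB16 partners from -0.21 to -0.04 under the same settings, and that of the Sertoli cell markers went from 0.14 to 0.00 after lowess, that of the undifferentiated markers from 0.12 to 0.02 after centring, and that of the UCH genes from -0.20 to -0.08 after quantile normalization, while that of the KIT list (0.21) passed that of the GDNF family (0.19) after quantile normalization. The cause of these shifts was not tested beyond what each setting does by construction. No paired analysis was possible because each group holds 1 array.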

Other observations

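Primordial germ cell markers, which precede the spermatogonial program, were below 0 in 6 of 8 cases (median -0.20), where 51.4% of all genes were above 0. Dppa3, an early germ cell and naive ES cell gene, was at 7.16 against 8.99 (-1.83) and at -1.84 by its other probe set. Dnd1, which protects germ cell RNAs, was at 0.51, Ddx4, the germ cell helicase gene, at 7.22 against 7.59 (-0.37), and Prdm14, a factor of ES and primordial germ cells, at -0.34.

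Markers of the somatic cells of the testis were mostly dim. Of 9 measured Sertoli cell markers 4 reached the floor and 6 were above 0 (median 0.14), among them Clu, a secreted chaperone gene, at 7.30 against 6.69 (0.61), Wt1 at 0.57 and Cldn11, a tight junction gene, at 0.34. Fshr, the receptor gene of follicle-stimulating hormone, was at -0.21. Of 4 measured Leydig cell markers 1 reached the floor, Cyp11a1 at -0.05, and the median was -0.06. Hsd3b1, a steroid dehydrogenase gene, was at -0.48, Cyp17a1 at -0.07 and Star at 0.08, all dim in both arrays.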
